A study of Mus musculus with 6 samples.

Results

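The small leucine-rich proteoglycans (SLRPs) are secreted matrix proteins whose core is a row of leucine-rich repeats, which binds collagen fibrils and, in several members, growth factors of the TGFβ family. Most carry glycosaminoglycan chains, dermatan or chondroitin sulfate on some members and keratan sulfate on others. They are made mainly by fibroblasts and other mesenchymal cells of skin, tendon, cartilage, bone and cornea, where they help to set the width and spacing of collagen fibrils. The family was represented by 10 genes, Bgn, Dcn, Lum, Ogn, Aspn, Omd, Prelp, Fmod, Kera and Podn. A probe set was used where it was paired with 1 of these symbols and no other gene, and 8 of the 10 genes had such a probe set, among 10261 genes measured in all. Omd and Kera were not analysed here. The family was chosen by name with results of these arrays already known, and a gene with several probe sets was to be represented by the brightest by mean signal, but each of the 8 had only 1 probe set. The levels and differences of the 8 genes are therefore given as a description, with no test.

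The study profiled 2 primary mouse cell types with biotin-labelled total RNA on 6 MoGene-1_0-st arrays from Affymetrix, of which 3 carry the label keratinocytes and 3 the label MEFs, to set an epithelial against a mesenchymal state. The keratinocytes, the main cells of the epidermis, were taken from newborn (P0) back skin and grown in keratinocyte medium, and no strain is stated for them in the labels or methods read. The MEFs (mouse embryonic fibroblasts) came from E13.5 embryos freed of heads and inner organs, so that their cultures can hold the mesenchymal cells of several tissues. For the MEFs, 10 to 15 embryos per preparation in the protocol of the labels, the strain is DR-4 in that protocol and C57BL/6J in the methods, and neither cell type was treated. The labels call the 3 arrays of a group biological replicates but do not say that they came from separate animals, so the spread between them may be partly technical. Values are log2 signals, so a difference of 1 is a doubling. A gene was taken as above background on an array when its signal was over the 95th percentile of the 10 olfactory receptor probe sets there. This level lay between 5.49 and 5.92 on the keratinocyte-labelled arrays and between 6.05 and 6.58 on the MEF-labelled arrays, so it was harder to pass on the latter. It was above the median signal of all probe sets on replicates 1 (median 6.25) and 3 (6.31) of the MEF-labelled arrays. On the other arrays it was below the median.

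The cell type labels ran against the marker genes. Cdh1, which encodes the epithelial adhesion protein E-cadherin, had log2 signals of 3.33, 2.16 and 3.26 on the keratinocyte-labelled arrays and 8.62, 8.59 and 8.73 on the MEF-labelled arrays, at least 7.71-fold lower with the keratinocyte label (limma adjusted p = 4.03e-07). Vim, which encodes the mesenchymal filament protein vimentin, had signals of 11.93, 11.97 and 12.03 on the keratinocyte-labelled arrays and 3.81, 3.92 and 3.78 on the MEF-labelled arrays, at least 48.1-fold higher with the keratinocyte label (limma adjusted p = 7.89e-10). The groups did not overlap for either gene (p = 0.1 in a two-sided exact permutation test, which 3 arrays against 3 cannot go below). Of 8 keratinocyte markers, all 8 measured, 8 were lower on the keratinocyte-labelled arrays, with a summed linear signal of 57.4 to 66.7 there and 15990 to 16184 on the MEF-labelled arrays. Of 8 fibroblast markers, 8 were higher on the keratinocyte-labelled arrays, with sums of 18742 to 19382 there and 96.4 to 112 on the MEF-labelled arrays. Each direction in the text is therefore that of the arrays as labelled.

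All 8 measured SLRP genes lay above background on the 3 keratinocyte-labelled arrays and on none of the MEF-labelled arrays. Vim had the same pattern and Cdh1 the reverse, and the share of all genes with this pattern was not computed. Their log2 signals ran from 6.80 to 11.94 on the keratinocyte-labelled arrays and from 0.06 to 4.34 on the MEF-labelled arrays, and the groups did not overlap for any of the 8. The differences ranged from 3.39 to 9.00 on the log2 scale, with a median of 6.63, beside a median of -0.12 over all 10261 genes. For 35.0% of all genes the 3 keratinocyte-labelled arrays lay above the 3 MEF-labelled arrays. The family was chosen with this contrast in view, so nothing is read from its counts. For the lists of other genes described further on, the background is that 32.9% of all genes passed the limma threshold (adjusted p under 0.05) with higher signal on the keratinocyte-labelled arrays, 41.7% with lower signal and 74.5% in either direction. In these bulk samples fewer cells of a type and less RNA per cell cannot be told apart.

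**Figure D1:**
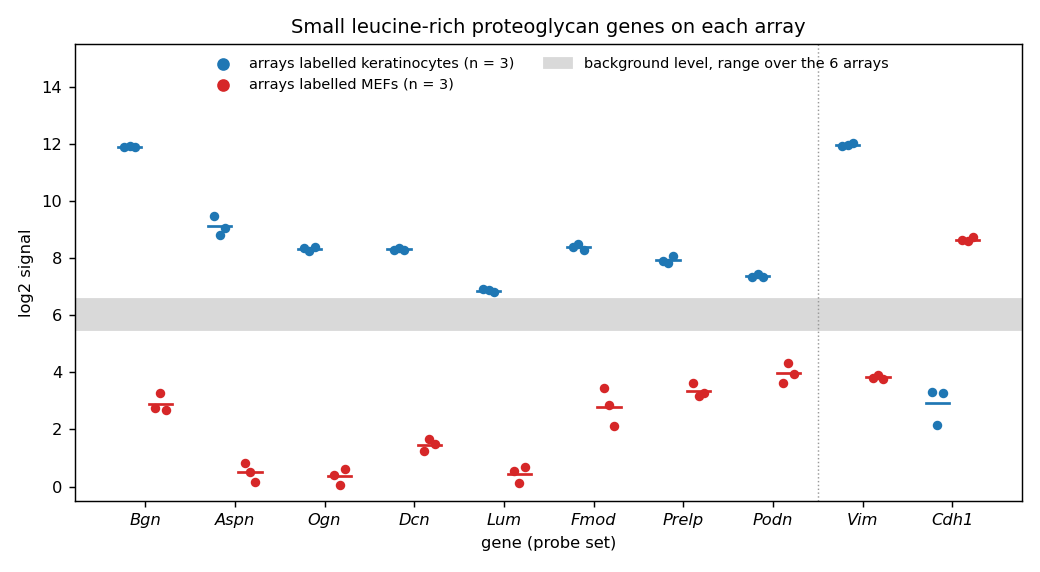
Log2 signal (vertical axis) of the 8 measured SLRP genes, ordered by their difference, and of Vim and Cdh1, on the 3 keratinocyte-labelled arrays (blue, left of each pair) and the 3 MEF-labelled arrays (red, right), where points are single arrays, short lines are means and grey shading spans the background levels of the 6 arrays. Each SLRP gene lies above the shading on the keratinocyte-labelled arrays and below it on the MEF-labelled arrays, as Vim does, while Cdh1 lies the other way round.

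Class I of the family holds biglycan, decorin and asporin. Bgn, which encodes biglycan, a carrier of chondroitin or dermatan sulfate that binds collagen and also acts on Toll-like receptors when released, had log2 signals of 11.89, 11.94 and 11.88 on the keratinocyte-labelled arrays and 2.75, 3.28 and 2.67 on the MEF-labelled arrays. Its keratinocyte-labelled arrays lay within 0.07 of each other, the narrowest range of the 8 genes in that group. The difference was 9.00 ± 0.16 (SE), and because Bgn was not above background on the MEF-labelled arrays its fold is a lower bound, at least 45.8-fold higher with the keratinocyte label. Dcn, which encodes decorin, a collagen-binding proteoglycan that limits fibril thickness and binds TGFβ, had signals of 8.28, 8.36 and 8.28 on the keratinocyte-labelled arrays and 1.25, 1.65 and 1.47 on the MEF-labelled arrays. It was at least 3.78-fold higher, with a difference of 6.85 ± 0.12 (SE). Aspn, which encodes asporin, named for its run of aspartate residues and known to bind collagen and TGFβ, had signals of 9.47, 8.81 and 9.05 on the keratinocyte-labelled arrays and 0.84, 0.50 and 0.16 on the MEF-labelled arrays. Its SD of 0.34 over the keratinocyte-labelled arrays was the largest of the 8 genes there, with replicate 1 above the others. The difference was 8.61 ± 0.21 (SE), or at least 6.60-fold.

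Class II includes lumican, fibromodulin and PRELP, of which lumican and fibromodulin can carry keratan sulfate. Lum, which encodes lumican, a regulator of fibril spacing needed for a clear cornea, had log2 signals of 6.93, 6.87 and 6.80 on the keratinocyte-labelled arrays and 0.54, 0.12 and 0.67 on the MEF-labelled arrays. Its signal on the keratinocyte-labelled arrays stood little above the background levels of the MEF-labelled arrays, which were 6.53, 6.05 and 6.58. A difference of 6.42 ± 0.14 (SE) therefore gave a bound of only 1.39-fold. Fmod, which encodes fibromodulin, a collagen-binding protein of tendon and cartilage, had signals of 8.38, 8.49 and 8.30 on the keratinocyte-labelled arrays and 3.43, 2.84 and 2.12 on the MEF-labelled arrays. The MEF-labelled arrays of Fmod spread over 1.31, the widest range of any member in either group, and the difference was 5.59 ± 0.28 (SE), at least 4.01-fold. Prelp, whose product PRELP has a basic N-terminal stretch that binds heparan sulfate, had signals of 7.90, 7.84 and 8.08 on the keratinocyte-labelled arrays and 3.64, 3.15 and 3.29 on the MEF-labelled arrays. The difference was 4.58 ± 0.14 (SE), at least 2.94-fold.

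The remaining measured members belong to classes III and V. Ogn, which encodes osteoglycin, also known as mimecan and found in the cornea with keratan sulfate chains, had log2 signals of 8.35, 8.26 and 8.40 on the keratinocyte-labelled arrays and 0.42, 0.06 and 0.62 on the MEF-labelled arrays, with a difference of 7.97 ± 0.14 (SE), at least 3.86-fold. Podn, which encodes podocan, first described in the kidney, had signals of 7.32, 7.43 and 7.33 on the keratinocyte-labelled arrays and 3.64, 4.34 and 3.95 on the MEF-labelled arrays. Podn had the smallest difference of the 8 genes, 3.39 ± 0.17 (SE), which gave a bound of 1.97-fold. The background level rests on few probe sets. With the median signal of each array in its place, the 8 bounds ran from 1.49-fold for Lum to 49.1-fold for Bgn. With Olfr1174, the brightest olfactory receptor probe set, left out of the background level, they ran from 2.81-fold for Lum to 92.3-fold for Bgn. Leaving out Olfr1174 was a choice made after the data were seen. The same choice raised each bound that stayed a bound among the listed and flanking genes 2.02-fold where the gene was higher on the keratinocyte-labelled arrays and 1.17-fold where it was lower. It also put 7 of the 21 such genes that were above background on no array above it on at least 1, namely B4galt7, Chst13, Chst15, Col9a2, Mkx, Ippk and Haus7. Among the same listed and flanking genes, 3 bounds became folds, including that of Actc1, and 18 genes without a fold gained a bound or a fold.

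Within the groups, the arrays kept no common order over the members. Of the 8 genes, 2 were highest on replicate 1, 4 on replicate 2 and 2 on replicate 3 of the keratinocyte-labelled arrays, and 3, 3 and 2 on replicates 1, 2 and 3 of the MEF-labelled arrays. The median over the 8 genes was 8.31, 8.31 and 8.29 on the keratinocyte-labelled arrays and 2.00, 2.25 and 1.80 on the MEF-labelled arrays. The SD of the members between arrays was 0.04 to 0.34 on the keratinocyte-labelled arrays, with a median of 0.07. On the MEF-labelled arrays it was 0.20 to 0.66, with a median of 0.31. Over all genes the median SD was 0.14 on the keratinocyte-labelled arrays and 0.11 on the MEF-labelled arrays. The signals of the members on the MEF-labelled arrays were all under background, and the part of low signal in this spread was not tested.

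Among all 10261 genes ordered by their difference, Bgn was number 3, Aspn number 5 and Ogn number 10 from the top of the keratinocyte-labelled side, Dcn number 31, Lum number 47, Fmod number 101, Prelp number 182 and Podn number 360. This order describes the signals as measured, and since the lower signal of each member was under background it is no order of folds.

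**Figure D2:**
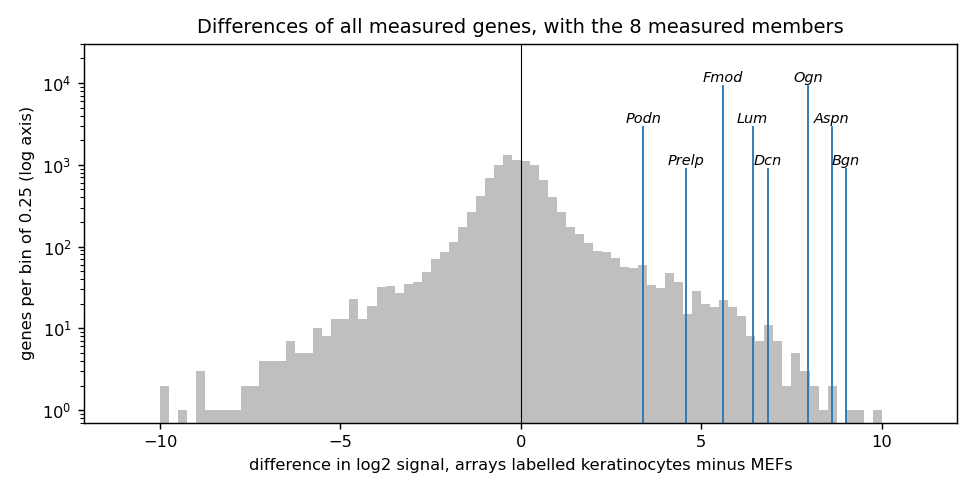
Number of genes (vertical axis, log scale) by their difference in log2 signal, keratinocyte-labelled minus MEF-labelled arrays (horizontal axis, bins of 0.25), over all 10261 genes (grey), with a blue line at each of the 8 measured SLRP genes. The members lie between 3.39 for Podn and 9.00 for Bgn, on the right of a distribution whose median is -0.12.

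Most of the members sit next to each other in the genome. In the RefSeq gene table of GRCm38.p6, used for gene order only, Dcn, Lum and Kera lie together on chromosome 10, Aspn, Omd and Ogn on chromosome 13, and Prelp and Fmod on chromosome 1, whereas Podn on chromosome 4 and Bgn on chromosome X stand alone. The differences of measured neighbours were 6.85 for Dcn and 6.42 for Lum on chromosome 10, 8.61 for Aspn and 7.97 for Ogn on chromosome 13, and 5.59 for Fmod and 4.58 for Prelp on chromosome 1. The 2 nearest measured protein-coding genes on each side of these 5 loci were 20 genes that the choice of members did not use. Of the 20, 5 were higher on the keratinocyte-labelled arrays, 8 were lower and 7 did not pass (limma), with a median difference of 0.02, beside the 32.9% of all genes that were higher and the 41.7% that were lower.

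The largest difference among the flanking genes was that of Atp2b4, which encodes a plasma membrane calcium pump and lies beside Prelp with 1 other coding gene between them. It was 4.39 ± 0.12 (SE), at least 1.17-fold higher on the keratinocyte-labelled arrays (limma adjusted p = 1.48e-08). Btg1, an antiproliferative gene before Dcn, was 2.67-fold higher, with log2 signals of 9.45 ± 0.16 on the keratinocyte-labelled arrays and 8.04 ± 0.26 on the MEF-labelled arrays (SD, n = 3 each; limma adjusted p = 4.36e-05), and Btg2, next to Fmod, had a difference of 0.52 ± 0.12 (SE; limma adjusted p = 0.00357) and was above background on 1 of the 3 MEF-labelled arrays. Around Podn, Scp2 and Czib were higher, by 0.80 and 0.36 on the log2 scale, but neither was above background on the MEF-labelled arrays. With Olfr1174 left out of the background, both were above it on 2 of the 3 MEF-labelled arrays. The 4 genes around Bgn all had lower signal on the keratinocyte-labelled arrays. Dusp9, which encodes a MAP kinase phosphatase, was at least 2.95-fold lower (limma adjusted p = 7.70e-07) and Slc6a8, the creatine transporter gene, was 1.89-fold lower (limma adjusted p = 3.41e-05), and the differences of Trex2 and Haus7 were -1.98 and -0.64, with neither above background on any array. Around Aspn and Ogn, Ippk (-0.92), Nol8 (-0.56) and Bicd2 (-0.39) were lower, as was Poc1b (-0.67) near Dcn and Lum. Ippk was above background on no array. Snrpe, Mybph, Eea1, Atp2b1, Iars, Cpt2 and Echdc2 did not pass, with differences between -0.15 and 0.22.

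**Figure D3:**
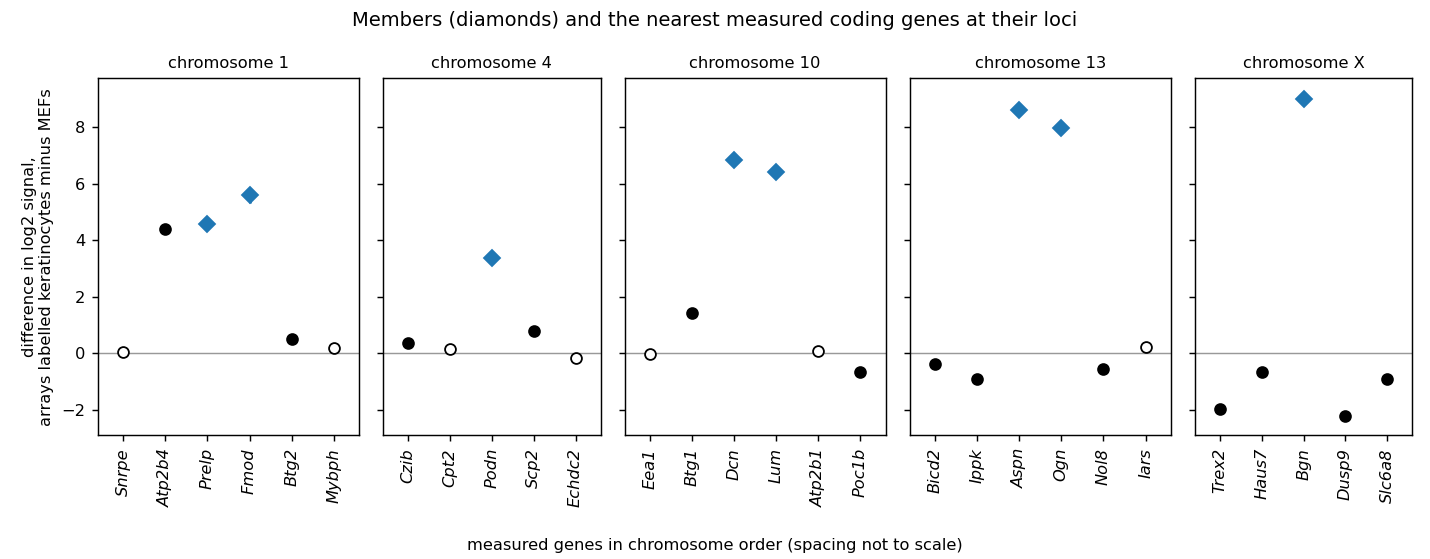
Difference in log2 signal, keratinocyte-labelled minus MEF-labelled arrays (vertical axis), of the measured members (blue diamonds) and of the 2 nearest measured coding genes on each side (circles, filled where limma's adjusted p was under 0.05), in chromosome order with spacing not to scale. The members lie between 3.39 and 9.00 and, apart from Atp2b4 at 4.39 and Btg1 at 1.41, the flanking genes lie under 1.

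The sequence before the start of these genes was not alike. RefSeq windows of GRCm38.p6 were found for 6 of the 8 measured members, 7 windows in all since Podn had 2, and not for Dcn and Lum. Over the 250 bases before the start, the GC content ran from 30.0% for Aspn to 78.0% for 1 of the windows of Podn, beside a median of 52.4% over 32851 windows of all genes. Printed here, 5′ to 3′, are the windows of the 3 members with the largest differences, with matches to the TATA motif TATAAA on either strand in capitals. They lie at chrX:73483351-73483600 for Bgn, chr13:49544193-49544442 for Aspn and chr13:49607765-49608014 for Ogn, all on the plus strand.
Bgn: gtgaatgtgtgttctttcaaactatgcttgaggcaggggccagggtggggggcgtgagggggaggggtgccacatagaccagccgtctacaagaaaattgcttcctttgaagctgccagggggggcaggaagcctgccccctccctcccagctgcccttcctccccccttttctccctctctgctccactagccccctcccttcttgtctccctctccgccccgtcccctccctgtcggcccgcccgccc
Aspn: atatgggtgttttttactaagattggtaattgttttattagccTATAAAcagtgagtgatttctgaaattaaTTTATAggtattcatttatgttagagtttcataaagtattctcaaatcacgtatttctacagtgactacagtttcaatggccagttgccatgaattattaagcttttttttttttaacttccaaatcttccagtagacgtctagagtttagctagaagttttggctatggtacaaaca
Ogn: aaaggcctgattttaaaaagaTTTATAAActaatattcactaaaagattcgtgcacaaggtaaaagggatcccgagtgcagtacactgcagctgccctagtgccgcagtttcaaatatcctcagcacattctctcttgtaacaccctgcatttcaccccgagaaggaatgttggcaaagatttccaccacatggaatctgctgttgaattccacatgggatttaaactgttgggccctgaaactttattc
The window of Bgn was GC-rich, at 64.4%, and held no match, while those of its followers in difference were poor in GC, at 30.0% for Aspn and 42.0% for Ogn, and held matches that began 207 and 178 bases before the start in Aspn and 229 and 227 in Ogn, where the pair overlaps on opposite strands. TATAAA was thus found in 2 of the 7 windows of the measured members and in 12.4% of all windows. The E-box CACCTG, searched on both strands and so including CAGGTG, was found in 1 of the 7, a window of Podn with matches 123 and 9 bases before the start, and in 17.2% of all windows. A match is a description of the letters only.

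Further family members and relatives were few on the list of measured genes. Of 9 such genes, 2 were measured. Podnl1, a podocan-like gene, had log2 signals of 3.97, 4.38 and 4.37 on the keratinocyte-labelled arrays and 3.47, 2.97 and 3.31 on the MEF-labelled arrays and passed the test (limma adjusted p = 6.92e-04), but was above background on no array. Nyx, which encodes nyctalopin of the retina, had signals of 6.52, 6.53 and 6.39 on the keratinocyte-labelled arrays and 6.41, 6.38 and 6.31 on the MEF-labelled arrays and did not pass (limma adjusted p = 0.287). The groups of Nyx overlapped.

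The collagens that SLRPs bind were higher on the same arrays as the members. Of 14 listed genes of fibril-forming and fibril-associated collagens and collagen VI, 14 were measured and 14 were higher on the keratinocyte-labelled arrays, with a median difference of 5.24. Of the 14, 12 were above background on all 3 keratinocyte-labelled arrays, and 1 was above it on no array. Col1a2 and Col1a1, the chains of collagen I, were at least 66.8-fold and at least 73.2-fold higher (limma adjusted p = 5.60e-09 and 7.39e-09), and Col5a2, a chain of the collagen V that nucleates such fibrils, was at least 16.0-fold higher (limma adjusted p = 2.58e-09). Col12a1, from a fibril-associated collagen, was above background on all 6 arrays and 18.5-fold higher, with 10.84 ± 0.09 on the keratinocyte-labelled arrays and 6.63 ± 0.07 on the MEF-labelled arrays (SD, n = 3 each). The 14 genes include Col1a1 and Col1a2, which also served as fibroblast markers, and Col2a1, a cartilage marker.

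The chains of these proteoglycans are built by enzymes of several families. Of 22 genes of the linker and of dermatan and chondroitin sulfate synthesis, 19 were measured, 15 were higher on the keratinocyte-labelled arrays, 2 were lower and 2 did not pass (limma), with a median difference of 0.87. No array had a signal above background for 5 of the 19. Csgalnact1, which adds the first sugar of a chondroitin chain, had signals of 7.45, 7.38 and 7.51 on the keratinocyte-labelled arrays and 2.64, 2.52 and 2.42 on the MEF-labelled arrays, at least 2.08-fold higher (limma adjusted p = 2.99e-09). Chsy1, a chondroitin synthase, had a difference of 2.34 ± 0.09 (SE; limma adjusted p = 1.02e-07) and was above background on 1 of the 3 MEF-labelled arrays. Chst11, a chondroitin 4-O-sulfotransferase, had a difference of 2.38 ± 0.18 (SE) and was above background on 1 array. Of the enzymes for dermatan sulfate, the epimerase gene Dse was 1.58-fold and the sulfotransferase gene Chst14 was 1.56-fold higher (limma adjusted p = 1.50e-04 and 2.26e-04). Xylt1, which starts the linker, had a difference of 2.15 ± 0.14 (SE) but was not above background on the MEF-labelled arrays, and no fold is given. B4galt7, which adds the second sugar of the linker, and Chst15, a sulfotransferase, went the other way, with differences of -0.51 and -0.36. Neither was above background on any array, but with Olfr1174 left out of the background both were above it on the 3 MEF-labelled arrays, and Chst15 also on the 3 keratinocyte-labelled arrays.

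Of 11 genes listed for keratan sulfate and the N-glycans that carry it, 8 were measured, and 4 were higher and 4 lower on the keratinocyte-labelled arrays, with a median difference of -0.02. Chst2, a sulfotransferase for N-acetylglucosamine, was at least 2.53-fold higher (limma adjusted p = 2.58e-08), and St3gal3, a sialyltransferase gene, was at least 1.41-fold higher (limma adjusted p = 1.68e-06). B3gnt2, which extends lactosamine chains, was at least 3.99-fold lower, with signals of 5.14 ± 0.15 on the keratinocyte-labelled arrays and 7.70 ± 0.04 on the MEF-labelled arrays (SD, n = 3 each; limma adjusted p = 1.20e-07). The others were Chst1 (1.51) and Fut8 (0.39), higher on the log2 scale by the values given, and B4galt1 (-0.58), St3gal1 (-0.61) and B4galt4 (-0.43), lower. Chst1 and B4galt4 were above background on no array.

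Of 13 genes of proteases that cut SLRPs or procollagens and their enhancers, 9 were measured, 7 were higher on the keratinocyte-labelled arrays, 1 was lower and 1 did not pass (limma), with a median difference of 3.12. Pcolce, which encodes an enhancer of procollagen cleavage, was at least 23.4-fold higher (limma adjusted p = 1.11e-09), the aggrecanase gene Adamts5 at least 5.91-fold higher (limma adjusted p = 1.54e-09) and the collagenase gene Mmp13 at least 3.34-fold higher (limma adjusted p = 2.58e-09). Bmp1, whose product removes the propeptide of biglycan, was above background on all 6 arrays and differed less, with signals of 9.42 ± 0.08 on the keratinocyte-labelled arrays and 8.91 ± 0.03 on the MEF-labelled arrays (SD, n = 3 each), 1.42-fold higher (limma adjusted p = 9.35e-04). Its relative Tll1 did not pass, with a difference of 0.01. Pcolce2, the second enhancer, went the other way from Pcolce, with a difference of -2.26 ± 0.19 (SE; limma adjusted p = 1.28e-05), and was above background on only 1 of the 3 keratinocyte-labelled arrays.

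Receptors of SLRPs ran in both directions. Of 16 listed, 11 were measured, 4 were higher on the keratinocyte-labelled arrays, 6 were lower and 1 did not pass (limma), with a median difference of -0.30. Lrp1, an endocytic receptor for decorin, was 6.78-fold higher, with signals of 10.11 ± 0.04 on the keratinocyte-labelled arrays and 7.35 ± 0.16 on the MEF-labelled arrays (SD, n = 3 each; limma adjusted p = 8.78e-08). The receptor tyrosine kinase gene Met, whose product also binds decorin, was 12.8-fold lower, with 6.52 ± 0.14 on the keratinocyte-labelled arrays and 10.20 ± 0.07 on the MEF-labelled arrays (SD, n = 3 each; limma adjusted p = 1.63e-08), and Itga2, the collagen-binding integrin chain α2, was at least 3.18-fold lower (limma adjusted p = 3.83e-08). Itgb1 (0.80), Igf1r (0.65) and Lrp6 (0.54) were higher by the log2 differences given, and Cd44 (-0.93), Erbb2 (-0.34), Egfr (-0.30) and Kdr (-1.47) were lower. Kdr was above background on no array. The Toll-like receptor gene Tlr2, whose product responds to free biglycan, did not pass and was above background on no array.

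Of 12 genes listed for TGFβ and related ligands, latent TGFβ binding proteins and CCN matrix proteins, 9 were measured and 9 were higher on the keratinocyte-labelled arrays, with a median difference of 4.19. Tgfb3 had signals of 9.47, 9.55 and 9.50 on the keratinocyte-labelled arrays and 2.31, 2.23 and 2.31 on the MEF-labelled arrays, at least 8.70-fold higher (limma adjusted p = 7.89e-10). Ccn4 was at least 7.40-fold higher (limma adjusted p = 2.47e-08) and Ltbp2, which encodes a microfibril-associated protein, at least 6.80-fold higher (limma adjusted p = 3.52e-09). Of 14 other matrix and cell surface proteoglycans, 6 were measured, 5 were higher on the keratinocyte-labelled arrays and 1 was lower (limma), with a median difference of 1.69. Cspg4, which encodes NG2, was at least 1.69-fold higher (limma adjusted p = 1.15e-07) and Hspg2, which encodes perlecan, was 4.05-fold higher (limma adjusted p = 6.13e-07). Acan, which encodes aggrecan of cartilage, had a difference of 1.88 ± 0.16 (SE) but was above background on no array. Agrn, which encodes agrin, a heparan sulfate proteoglycan, was 2.14-fold lower on the keratinocyte-labelled arrays (limma adjusted p = 1.24e-05).

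**Figure D4:**
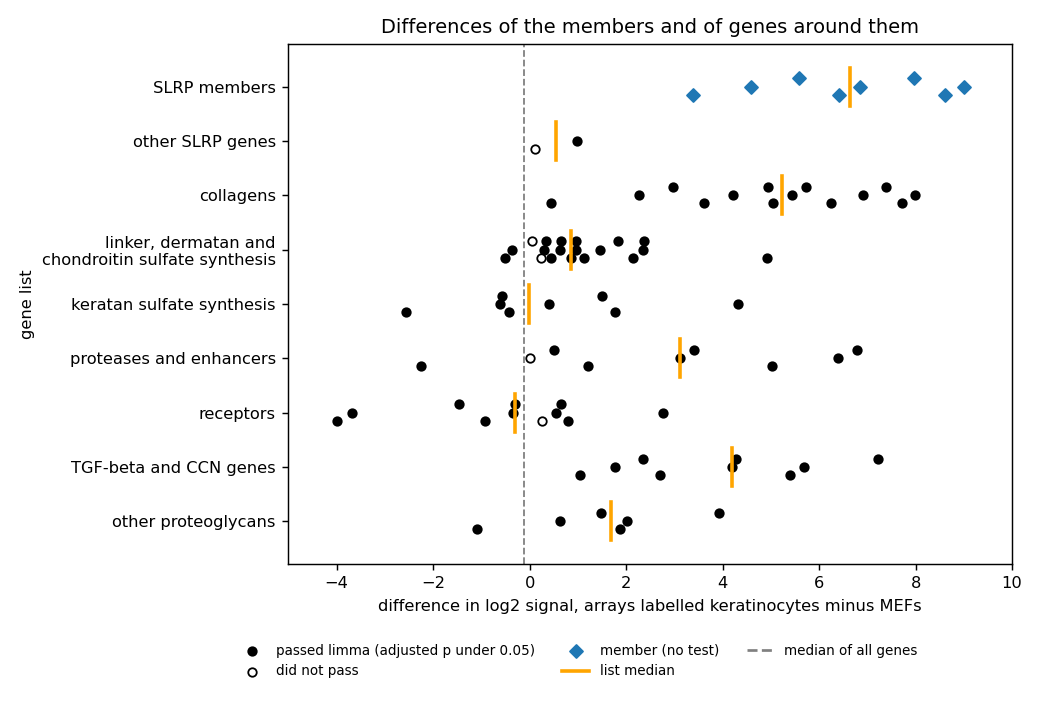
Difference in log2 signal, keratinocyte-labelled minus MEF-labelled arrays (horizontal axis), of each measured gene of the SLRP members (blue diamonds, no test) and of 8 lists of genes around them (circles, filled where limma's adjusted p was under 0.05), with an orange bar at each list's median and a dashed line at the median of all genes, -0.12. The collagens, proteases and TGFβ genes have medians of 5.24, 3.12 and 4.19, whereas keratan sulfate synthesis and the receptors lie around 0, at -0.02 and -0.30.

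Several markers of connective tissues other than fibroblasts were higher on the same arrays as the members. Of 5 tendon markers, 4 were measured, 3 were higher on the keratinocyte-labelled arrays and 1, Mkx, was lower. Their summed linear signal was 334 to 372 on the keratinocyte-labelled arrays and 91.7 to 99.0 on the MEF-labelled arrays. Tnmd, which encodes tenomodulin of tendon, had log2 signals of 7.32, 7.55 and 7.53 on the keratinocyte-labelled arrays and 2.62, 2.95 and 2.74 on the MEF-labelled arrays, at least 2.11-fold higher (limma adjusted p = 1.00e-08). Of 8 cartilage markers, 5 were measured and 4 were higher, with sums of 489 to 546 on the keratinocyte-labelled arrays and 98.6 to 105 on the MEF-labelled arrays. Col2a1 was above background there, at 8.68 ± 0.10 on the keratinocyte-labelled arrays and 5.06 ± 0.11 on the MEF-labelled arrays (SD, n = 3 each), while Acan, Col9a1, Col9a2 and Comp were above it on no array, of which Col9a2 was above it on 1 array of each label without Olfr1174. Of 6 skeletal muscle markers, 2 were measured and both were higher, with sums of 161 to 182 on the keratinocyte-labelled arrays and 42.7 to 46.6 on the MEF-labelled arrays. Neither was above background on the MEF-labelled arrays. Actc1 was at least 1.32-fold higher, and Des was above background on only 1 of the 3 keratinocyte-labelled arrays. Of the bone and melanocyte markers none was measured. Of 5 endothelium markers and 5 leukocyte markers, 1 each was measured. Kdr of endothelium was lower and above background on no array. Cd68, a macrophage marker, was at least 7.28-fold lower on the keratinocyte-labelled arrays (limma adjusted p = 1.39e-07). Of 2 measured neural markers, Nes was at least 1.37-fold higher (limma adjusted p = 8.61e-08) and Tubb3 did not pass. The part of such cells in the signal of the SLRP genes was not tested.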

How the data were processed

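RNA of 3 arrays labelled keratinocytes and 3 labelled MEFs was analysed. Log2 values of 15648 probe sets were deposited by the authors, and the labels name oligo 1.46.0. The methods describe RMA with oligo for downloaded raw files of several datasets, which corrects background, equalises the distributions of the arrays and can shrink differences of dim genes. Neither how these probe sets were chosen nor whether the deposited values are such RMA output is stated. The platform table paired 11288 probe sets with 1 symbol and 645 with several, and 3715 were unnamed here. Symbols were updated for 11274 from RefSeq (GRCm38.p6). Genes (10261) were represented by their brightest probe set. Differences, keratinocyte-labelled minus MEF-labelled, were fitted over the 11288 probe sets with limma 3.58.1 in R 4.3.3 (lmFit, eBayes, no block, Benjamini-Hochberg adjusted p under 0.05). The code was run on simulated arrays with far fewer changed probe sets, all in 1 direction, so that run does not test the fit for data like these. Where a group was above background on no array, the fold is a lower bound, the bright group's mean set against the dim group's average of background or own signal (the higher on each array), and none is given under 1 or with both groups below background. Of each list, the 3 largest differences that passed and the genes against most of the list are named, with others as background. Dse, Chst14, Xylt1, Col12a1, Bmp1, Tll1, Tlr2, Cd44, Erbb2, Egfr and Kdr were named for their role after their values were seen. Members, lists and alternatives were chosen with earlier results of these data known. Protein sequences were not used here. The number of arrays limits the precision. Figures were drawn with matplotlib 3.10.9.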

Additional observations from a re-analysis of the deposited data

How the results depend on the processing

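Each of the 8 SLRP genes kept its direction in every setting in which it was fitted, with the difference of Bgn between 8.78 and 9.19, of Aspn between 8.43 and 8.78 and of Podn between 3.22 and 3.57. The settings were 2 other scalings (median centring and quantile normalization), 2 filters on low signal, robust eBayes with an intensity trend, the methods' t-test, a replicate block, leaving out each array, averaging the probe sets of a gene, fitting every probe set, and requiring a log2 difference of at least 1. Only the 2 scalings and leaving out an array could alter a member's difference. The other settings change the test or the genes fitted, and each member had 1 probe set, so the direction was fixed there. The filter on background kept the members through the keratinocyte-labelled arrays alone. With probe sets below the median signal left out, only Bgn was still in the fit, so 1 member was left with a median difference of 9.00, because the other members had low means over the 6 arrays. With that filter 1734 genes were higher on the keratinocyte-labelled arrays and 2542 lower, and the counts became 0 other SLRP genes higher, 8 chondroitin and dermatan sulfate genes higher and 0 lower, 0 keratan sulfate genes higher, 4 proteases or enhancers higher and 2 other proteoglycans higher. With probe sets not above background on 3 arrays left out, 0 other SLRP genes and 3 other proteoglycans were higher and 0 chondroitin and dermatan sulfate genes lower. With a minimum log2 difference of 1, 1442 genes were higher and 1476 lower, with 0 other SLRP genes higher, 7 chondroitin and dermatan sulfate genes higher and 0 lower, 1 keratan sulfate gene lower, and 1 receptor higher and 3 lower. Median centring gave 3801 genes higher and 3733 lower. Of the receptors, 5 were higher and 4 lower with median centring, and 4 higher and 4 lower with quantile normalization, beside 4 and 6 in the main fit. With the replicate block, 3117 genes were higher and 3942 lower. Same-numbered arrays had correlations of -0.23, -0.21 and -0.03 between their deviations from the group means, beside -0.03 to 0.21 for the other pairs. Deviations within a group of 3 arrays are tied to each other, so these values do not settle whether the replicate numbers pair the arrays. The methods name a t-test for other assays and limma for arrays, and with the methods' t-test applied here after Benjamini-Hochberg adjustment 3186 genes were higher and 3887 lower. Leaving out 1 array gave 3080 to 3300 genes higher and 3750 to 4195 lower. The signals of the members on the MEF-labelled arrays lay under background, so how far they were reduced there cannot be measured on these arrays.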

Other observations

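The 5 genes whose signals over the 6 arrays lay nearest to those of Bgn, by Euclidean distance in log2 signal, were Vim (1.67), Igf2 (1.76), Igfbp5 (2.13), Ccdc80 (2.21) and Tagln (2.43). Igf2 encodes a fetal growth factor, Igfbp5 a protein that binds such factors in the matrix, Ccdc80 a secreted matrix protein and Tagln the actin-binding protein transgelin. Igf2 stood at 11.27 ± 0.01 on the keratinocyte-labelled arrays and 3.63 ± 0.06 on the MEF-labelled arrays (SD, n = 3 each). This distance is a description, since over 2 groups of 3 arrays it reflects mainly the group means.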
